A study of Mus musculus with 3 samples.

Results

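The imprinted genes of the mouse were followed in J1 embryonic stem cells treated with the MEK inhibitor PD0325901 (PD). A list of 44 well-known imprinted genes from 19 imprinted domains was matched to the array through the accession given for each probe, and 42 of the 44 genes had at least 1 probe. H19 and Rian had no matched probe and were not analysed here. The 42 genes were measured by 69 of the 55681 non-control probes, and they are 42 of the 20660 genes that could be named on the array. All samples were J1 cells, an embryonic stem cell line of strain 129S4/SvJae from the inner cell mass, adapted to gelatin and grown without feeder cells in medium with serum replacement and 1000 U/mL LIF. All 3 samples were treated with 1 µM PD for 24 h, and total RNA of each was hybridised to an Agilent 1-colour array. There was 1 group with replicates 1 to 3, described in the study's methods as independent experiments. Untreated cells were not analysed here, so no value below is an effect of PD, and the comparisons are between imprinted genes and all genes and between the 3 arrays.

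An imprinted gene is transcribed mainly from the chromosome inherited from 1 parent. The choice is set by DNA methylation placed in the egg or sperm at imprinting control regions, which the early embryo keeps while most other methylation is lost. Many imprinted genes act on fetal and placental growth, others act in the brain, and long noncoding RNAs or microRNA clusters lie in several domains. In embryonic stem cells imprints can be lost in culture, and an array of total RNA does not tell the parental copies apart.

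The zinc finger protein ZFP57 binds the methylated hexamer TGCCGC and keeps methylation at imprinting control regions with its partner TRIM28. The hexamer was searched on both strands (GCGGCA on the other strand) in the RefSeq promoter windows of GRCm38.p6, which run from 250 bases before to 50 bases after a transcript start, since several imprinting control regions lie over promoters of the listed genes. Windows were found for 36 of the 44 genes, and 13 of the 36 (36.1%) held the hexamer, against 13.1% of the 27025 genes with a window. CpG-rich windows were also more frequent among the imprinted genes: 28 of 36 (77.8%) had at least 10 CpG dinucleotides, against 45.8% of all genes. Among genes with at least 10 CpG in a window, the hexamer was present in 12 of 28 imprinted genes (42.9%) and in 24.4% of all. Some genes had several windows. Counted by window, the hexamer was present in 25.9% of the windows of imprinted genes and 11.6% of all windows. Among windows with at least 10 CpG these shares were 37.1% and 22.5%. Of the 13 genes, 6 are paternally expressed with a match that begins before the transcript start. The following 30-base stretches show a single match of each, 5′ to 3′ on the strand of the gene, with the hexamer in capitals. Further matches in Mest, Nap1l5 and Zdbf2 are left out.
Plagl1, chr10:13090730-13090759, plus strand: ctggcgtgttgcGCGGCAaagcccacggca
Mest, chr6:30737971-30738000, plus strand: aggaggggcgctGCGGCAggatgggcgggt
Nap1l5, chr6:58907133-58907162, minus strand: cagccattcactTGCCGCgagccgcgaagc
Snrpn, chr7:60005184-60005213, minus strand: gacccctgcattGCGGCAaaaatgtgcgca
Zdbf2, chr1:63200210-63200239, plus strand: gctttgcggcttTGCCGCcttcacagatgc
Mcts2, chr2:152686898-152686927, plus strand: gccTGCCGCagcttggcgcatgtccagtcc
By parental copy, the hexamer was found in 8 of 18 paternally expressed and 2 of 7 maternally expressed genes. It was found in 3 of 11 genes placed in neither group, whose imprinting is tissue-dependent or mixed. A match to these letters is a description of the sequence, and neither binding nor methylation was measured.

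Levels are given as log2 of the processed signal minus the 75th percentile of each array, so that 0 is the 75th percentile of all probes and a difference of 1 is a factor of 2. A probe counted as detected where the scanner software marked its signal as well above background, and a gene was represented by its probe of highest mean level. Levels of different genes come from different probes, so they carry no order between genes. Signals at the 75th percentile were 511 to 551 on the 3 arrays, and the lowest signal well above background was 10.1 to 11.4. All 8 mESC markers were detected, with levels from 0.39 (Nanog) to 8.56 (Dppa5a). Of 10 fibroblast markers 7 were detected, at levels from -4.58 to 0.24, with summed signals of 1557, 1460 and 1558 on the 3 arrays. Lum and Postn were detected on none and Col3a1 on 1. The trophoblast regulators Cdx2, Elf5 and Hand1 were detected on none, while 5 of 8 trophoblast markers were, at levels from -3.96 to 3.62 (Tfap2c). All 8 neural markers were detected, at levels from -4.14 to 2.76 (Tubb3). Of all named genes, 72.6% were detected on all 3 arrays. On replicate 2, 6 blocks of the array held at least 10 spots that the software marked as non-uniform, called marked blocks below, and the other arrays had none. The representing probes of 13 imprinted genes had a spot there. For Airn, Commd1, Copg2, Dlk1, Impact, Mirg, Nap1l5, Ndn, Nnat, Rtl1 and Tssc4 it was the only spot of the probe. For Igf2r and Mest it was 1 of 10. Among genes detected on all 3 arrays, 12 of 38 imprinted and 2001 of 14999 named genes had such a spot. Further probes of Dlk1 (at -3.44), H13 (at -0.28), Nnat (at -1.77) and Zdbf2 (at -1.32) also had their spot in a marked block.

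Of the 42 imprinted genes, 38 were detected on all 3 arrays (90.5%), against 72.6% of the named genes. A level above the array's 75th percentile was found for 23 of the 42 (54.8%), against 41.4% of the named genes. In a further list, with 29 imprinted genes on the array, the shares were 79.3% and 34.5%. More than 1 probe was present for 19 of the 42 genes and for 5476 of the 20660 named genes. The part of the number of probes in these shares was not tested. The members and lists were chosen with earlier results of these data known. Grouped by the parental copy that textbooks give as active, 22 of 24 paternally expressed genes were detected and 8 of 24 lay above the 75th percentile. Of 7 maternally expressed genes on the array 5 were detected, and all 5 lay above it. All 11 genes placed in neither group, with tissue-dependent or mixed imprinting, were detected, and 10 of them lay above it. The median level of the detected genes was -0.43 for the paternal, 2.40 for the maternal and 2.37 for the tissue-dependent or mixed group. Over all detected named genes it was 0.61. These medians are descriptions of different probes and were not tested.

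**Figure D1:**
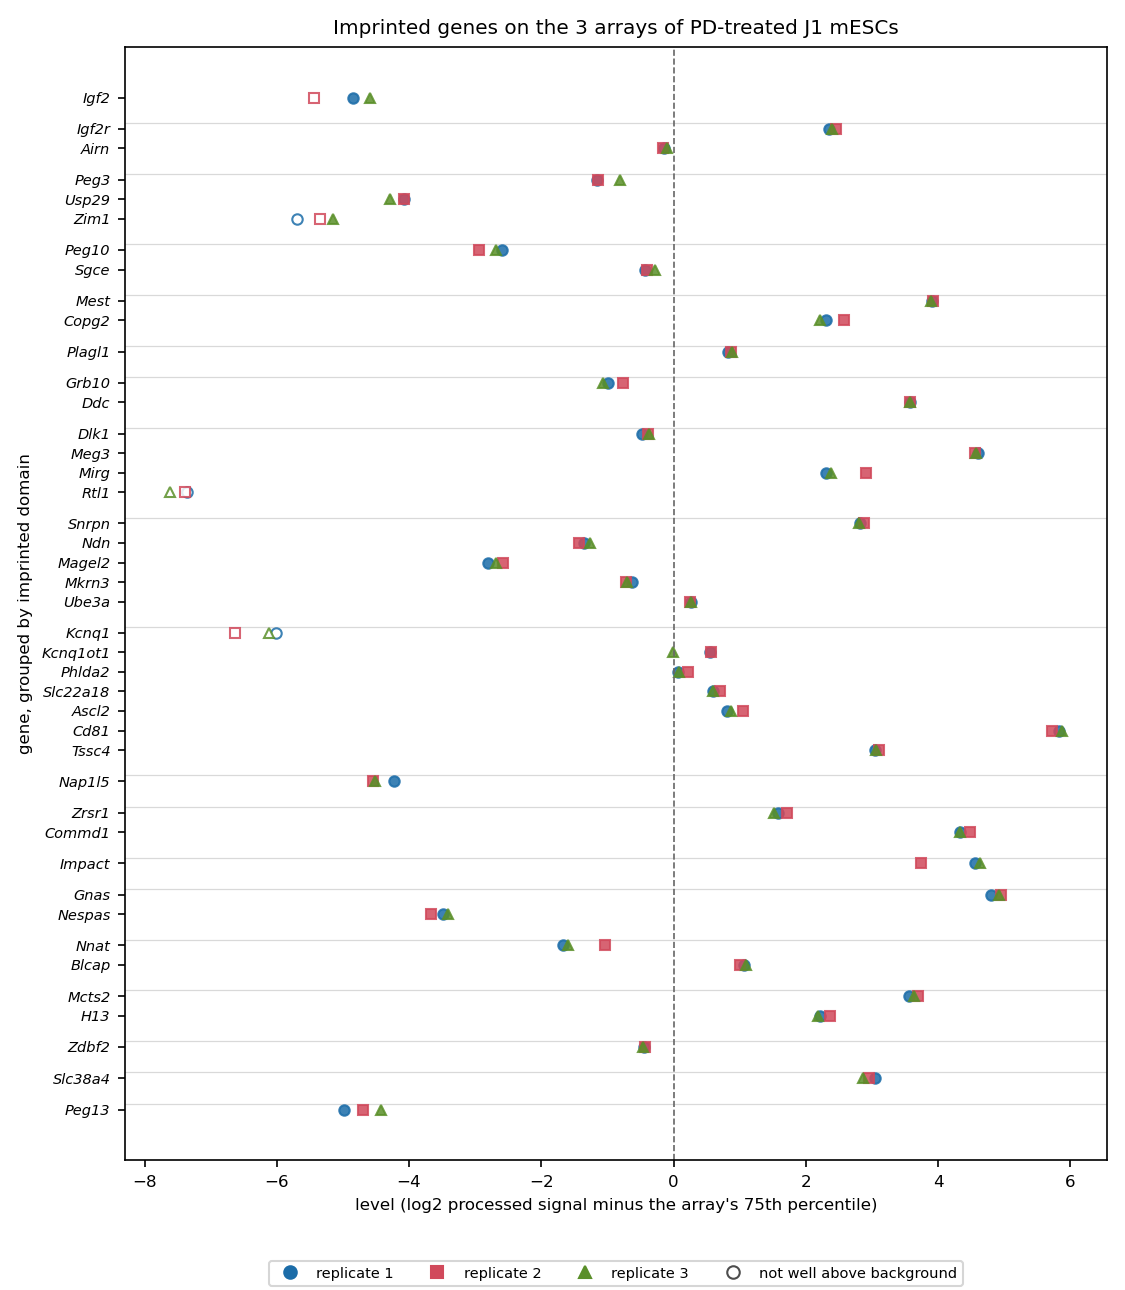
Level (log2 of processed signal minus the array's 75th percentile, x axis) of the 42 imprinted genes on the 3 arrays, grouped by domain. Circles, squares and triangles are replicates 1, 2 and 3, and open symbols mark signals not well above background. In 38 genes all symbols are filled, and replicate 2 of Impact, Mirg and Nnat stands away from the other 2 arrays.

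The Igf2-H19 domain encodes insulin-like growth factor 2, a fetal growth factor, and its receptor Igf2r, which removes the ligand from the cell surface, lies in a domain of its own. The levels of Igf2 were -4.84, -5.44 and -4.59 in replicates 1, 2 and 3, from signals of 19.2, 11.7 and 21.8. Igf2 was well above background on replicates 1 and 3 and not on replicate 2. The receptor was detected on every array, with levels of 2.35, 2.46 and 2.39. Airn, the paternal noncoding RNA that runs antisense to Igf2r and silences it in cis, had levels of -0.14, -0.15 and -0.09. A second Airn probe was at -7.85 ± 0.15 (SD, n = 3) and was detected on no array, so detection of Airn rests on 1 of its probes.

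Plagl1, a zinc finger transcription factor that limits proliferation, had levels of 0.82, 0.87 and 0.88. Its 4 probes were all detected, with mean levels of 0.86, 0.45, -2.22 and -2.60. Grb10, an adaptor that dampens insulin receptor signalling, had levels of -0.99, -0.77 and -1.07. Its neighbour Ddc, the decarboxylase that makes dopamine and serotonin, was at 3.58 on each of the 3 arrays (SD 0.001), the lowest SD among the detected imprinted genes. A second Ddc probe was 5.15 lower, at -1.57 ± 0.09 (SD, n = 3).

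In the Dlk1-Meg3 domain the maternal noncoding RNAs Meg3 and Mirg lay above the 75th percentile by their probe of highest mean level. The paternal protein-coding genes lay below it, and the maternal RNA Rian had no probe. Meg3, a maternal long noncoding RNA whose silencing is a known defect of cultured stem cell lines, had levels of 4.60, 4.55 and 4.57. With this probe the arrays differed by 0.05 at most. The other Meg3 probes were detected on all arrays as well, at -0.12 ± 0.18 and -1.27 ± 0.17 (SD, n = 3). Both means lay below the 75th percentile, and the arrays spanned 0.33 and 0.34. Mirg, the host transcript of a microRNA cluster downstream of Meg3, had levels of 2.30, 2.92 and 2.38. Replicate 2 was the high value, 0.61 above replicate 1, and its spot lay in a marked block. Dlk1, a transmembrane protein related to Notch ligands, had levels of -0.48, -0.38 and -0.37, and a second probe stood at -3.44 ± 0.11 (SD, n = 3). Rtl1, a retrotransposon-derived gene needed in placental capillaries, was detected on no array, with signals of 3.36, 3.06 and 2.68, below the lowest signal well above background.

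The span of Mirg holds 10 microRNA hairpins in RefSeq (GRCm38.p6), all on its strand, with 19 mature forms. Small RNAs were not measured on these arrays, and the level of Mirg is that of the host transcript. Mature forms miR-453 and miR-496a-5p share a seed, which is shown in capitals (bases 2 to 8). Also shown is a single mature form each of a further Mirg hairpin, of a hairpin inside Meg3 and of a hairpin inside Mest. The other mature forms of these genes are left out.
miR-453, in Mirg: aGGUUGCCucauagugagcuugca
miR-496a-5p, in Mirg: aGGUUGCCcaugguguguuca
miR-410-3p, in Mirg: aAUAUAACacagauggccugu
miR-770-5p, in Meg3: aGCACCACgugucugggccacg
miR-335-5p, in Mest: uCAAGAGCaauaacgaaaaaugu

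Mest, a paternal gene with a hydrolase fold, was at 3.91, 3.92 and 3.89. Its other probes were detected at 2.01 ± 0.04 and -1.18 ± 0.13 (SD, n = 3). Copg2, a coat protein subunit of Golgi vesicles that overlaps Mest, had levels of 2.31, 2.58 and 2.21, and a second probe gave 2.14, 2.38 and 2.17. Replicate 2 was highest with both probes. The first of them had its spot in a marked block and the second did not.

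The Peg3 domain carries the paternal zinc finger gene Peg3, the ubiquitin peptidase gene Usp29 and the maternal zinc finger gene Zim1. No gene of it lay above the 75th percentile. Peg3 had levels of -1.16, -1.14 and -0.81, with replicate 3 highest, and a second probe was at -3.79 ± 0.21 (SD, n = 3). Usp29 was detected at -4.08, -4.07 and -4.28. Zim1 was well above background on replicate 3 alone, with signals of 10.6, 12.5 and 14.9. In the Peg10 domain, Peg10, a retrotransposon-derived gene essential for the placenta, had levels of -2.60, -2.94 and -2.69, and Sgce, which encodes epsilon-sarcoglycan, had levels of -0.43, -0.40 and -0.27.

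The Snrpn domain corresponds to the human Prader-Willi and Angelman region, and all 5 of its genes were detected. Snrpn, which encodes a core protein of splicing particles, had levels of 2.82, 2.89 and 2.80. The other Snrpn probes were at 1.56 ± 0.05 and -1.81 ± 0.11 (SD, n = 3). Ube3a, the ubiquitin ligase gene that is imprinted in neurons, was at 0.27, 0.25 and 0.27. The paternal genes that act mainly in neurons were detected below the 75th percentile. Mkrn3, a RING finger gene, was at -0.69 ± 0.05, and Ndn and Magel2, of the MAGE family, were at -1.35 ± 0.08 and -2.69 ± 0.11 (SD, n = 3).

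In the Kcnq1 domain, 6 of 7 genes were detected and all 6 had a mean level above the 75th percentile. Kcnq1 itself, a potassium channel gene, was detected on no array, with signals of 8.53, 5.14 and 7.62. Kcnq1ot1, the paternal noncoding RNA that starts inside Kcnq1 and silences the domain in cis, had levels of 0.55, 0.57 and -0.01. Replicate 3 was the low value, and no spot of this probe lay in a marked block. A second Kcnq1ot1 probe had levels of -1.98, -2.56 and -2.23, where replicate 2 was lowest, so the probes did not share an order of the arrays. Of the maternal genes, Phlda2, which restrains placental growth, was at 0.12 ± 0.08, and the transporter gene Slc22a18 was at 0.63 ± 0.06 (SD, n = 3). Ascl2, a factor of the trophoblast lineage, had levels of 0.80, 1.05 and 0.87. Cd81, a tetraspanin, was at 5.81 ± 0.08 and Tssc4 at 3.07 ± 0.03 (SD, n = 3).

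Several paternal genes are retrogenes that sit inside an intron of a host gene and came from a parent gene elsewhere. Mcts2, a translation factor gene inside H13, had levels of 3.57, 3.70 and 3.64. The host H13, a signal peptide peptidase, was at 2.25 ± 0.09 (SD, n = 3). Other H13 probes were detected at mean levels of 0.27, -0.28 and -2.03. The parent gene of Mcts2, Mcts1, was at 2.99 ± 0.06. Zrsr1, related to splicing factors and lying inside Commd1, was at 1.60 ± 0.10, with the host at 4.38 ± 0.09 and its relative Zrsr2 at -1.09 ± 0.04 (SD, n = 3). Nap1l5, a nucleosome assembly gene inside Herc3, was at -4.43 ± 0.18, and its relative Nap1l1 at 6.98 ± 0.07 (SD, n = 3). The host Herc3 had levels of 0.08, -0.10 and 0.02. A second Nap1l5 probe had levels of -4.65, -4.68 and -6.11, and was not well above background on replicate 3. The sequence of a retrogene resembles that of its parent, and shared hybridisation was not tested. Nnat, a paternal membrane protein gene inside Blcap, is described with the spread below, and Blcap was at 1.06 ± 0.05 (SD, n = 3).

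Gnas encodes the stimulatory G protein alpha subunit, and its locus yields several transcripts from different promoters. The 3 Gnas probes were at 4.89 ± 0.08, -4.84 ± 0.26 and -7.47 ± 0.36 (SD, n = 3), and the lowest was detected on no array. Nespas, the paternal antisense RNA of the locus, was matched under its RefSeq name Gnasas1, with levels of -3.49, -3.67 and -3.41. Zdbf2, a paternal zinc finger gene, was at -0.44 ± 0.02 (SD, n = 3). Slc38a4, an amino acid transporter gene whose imprint depends on histone marks of the egg, had levels of 3.04, 2.95 and 2.87. Peg13, a noncoding RNA inside Trappc9, had levels of -4.98, -4.70 and -4.43, where replicate 3 was highest.

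More than 1 probe was present for 19 imprinted genes, and the choice of probe moved the level by more than the spread between arrays in many of them. The highest and lowest probe lay more than 2 log2 units apart in 12 of the 19, against 54.1% of the 5476 named genes with several probes. The median distance was 3.03 in the imprinted and 2.24 in all such genes. Detection was mixed in 3 of the 19, Airn, Gnas and Nap1l5, against 18.1% of all such genes. All probes were detected on all arrays in 15 of the 19, and in 3751 of the 5476 named genes with several probes. Which transcripts the probes measure was not tested.

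**Figure D2:**
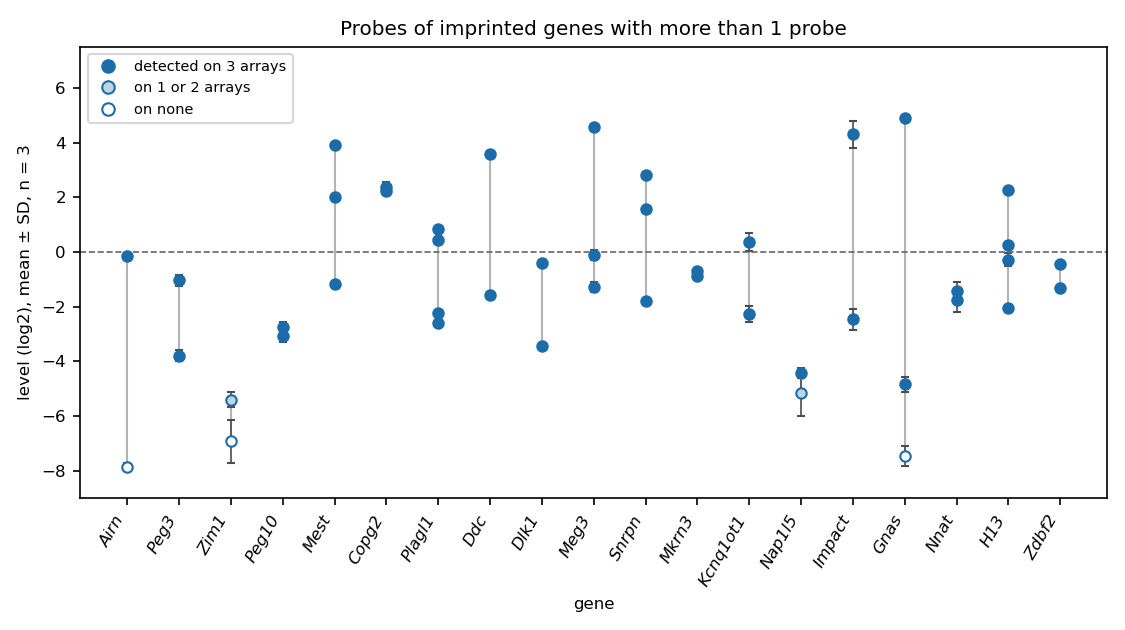
Mean level (log2, y axis) of every probe of the 19 imprinted genes with more than 1 probe. Error bars are the SD over 3 arrays, filled points are detected on all 3 arrays, pale points on 1 or 2 and open points on none. The probes of Gnas, Airn, Impact, Meg3, Ddc and Mest lie more than 5 log2 units apart, and those of Copg2 and Mkrn3 less than 0.2.

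The spread between the arrays was then compared. The median SD of the 38 detected imprinted genes was 0.085, beside 0.074 over the 14999 detected named genes. Without replicate 2 the medians were 0.052 and 0.051, without replicate 1 0.083 and 0.067, and without replicate 3 0.076 and 0.066. With the marked blocks left out they were 0.085 and 0.071. The SD was under 0.1 in 23 of the 38 (66.3% of all detected genes) and above 0.2 in 5 of the 38 (11% of all). With all detected genes divided by level into 4 bins of equal size, the median SD was 0.14 in the lowest bin and 0.055 in the highest, and 22 of the 38 imprinted genes had an SD above the median of their own bin. In none of the 38 did the arrays span more than 1 log2 unit, a span found in 0.987% of all detected genes. Replicate 2 was the array farthest from the others in 19 of the 38, against 42.8% of all.

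The 5 genes with an SD above 0.2 were Impact, Nnat, Mirg, Kcnq1ot1 and Peg13. Impact, a paternal gene whose protein restrains the stress kinase GCN2, had levels of 4.56, 3.74 and 4.63, so that replicate 2 was 0.82 below replicate 1. The second Impact probe had levels of -2.33, -2.15 and -2.88, where replicate 2 was highest. Its spot lay outside the marked blocks, while that of the first probe lay inside. Nnat had levels of -1.67, -1.04 and -1.59, and its second probe -1.96, -1.28 and -2.06. Replicate 2 was thus the highest with both Nnat probes, and both had their spot in a marked block. Of the 12 detected imprinted genes with a spot in a marked block 3 had an SD above 0.2, against 2 of the 26 elsewhere. Over all detected named genes the shares were 21.5% of 2001 genes inside and 9.39% of 12998 elsewhere. The part of the marked blocks in these values was not tested.

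**Figure D3:**
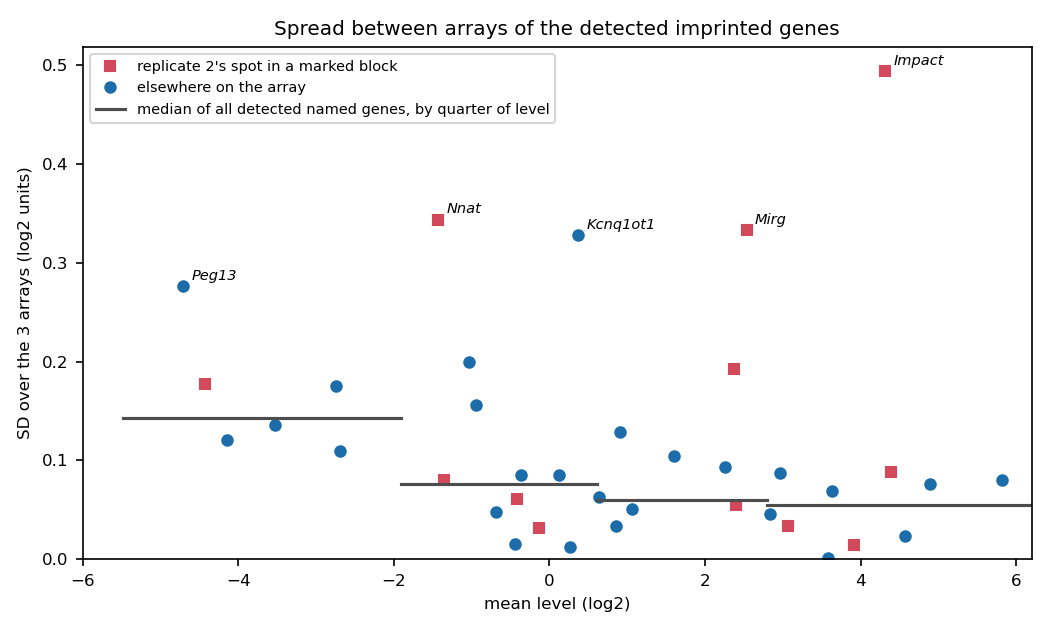
SD over the 3 arrays (log2, y axis) against mean level (x axis) for the 38 detected imprinted genes, with lines at the median SD of all detected named genes in 4 bins of level. Squares are genes whose spot on replicate 2 lay in a marked block and circles the others, and the 5 genes with an SD above 0.2 are named.

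Mest and Igf2r were each printed as 10 spots spread over the array, which allowed a test between the arrays. The test, limma's moderated F test over the 284 detected probes of this kind with Benjamini-Hochberg adjustment, takes spots as observations, so it compares these 3 hybridised samples and not cultures in general. It called 40.5% of the 284 probes. It called neither imprinted gene, with an adjusted p of 0.685 for Mest and 0.425 for Igf2r. Spots at the same position on different arrays were not paired in this test, so differences between positions entered its error. The SD over the spots of Mest was 0.055, 0.059 and 0.063 on replicates 1, 2 and 3. The spots of Igf2r had an SD of 0.078, 0.25 and 0.10, and replicate 2 was 0.11 above replicate 1 (SE 0.069, 95% interval -0.03 to 0.25). Replicate 2 was above both other arrays at 9 of the 10 Igf2r positions, and the exception was the spot at 1.82 in a marked block. With the spots in marked blocks left out, a setting chosen after these values were seen, replicate 2 was 0.18 above replicate 1 (SE 0.043, limma adjusted p = 0.00233) and 0.14 above replicate 3. The F test then gave an adjusted p of 0.00298 for Igf2r and 0.814 for Mest, with 41.9% of the 284 probes called. The call for Igf2r therefore turned on 1 spot. The order of replicates 2 and 3 depended on the zero of the scale. With the median of each array as zero, replicate 3 minus replicate 2 was 0.02 over all Igf2r spots and -0.05 without the marked blocks, and replicate 2 minus replicate 1 was 0.06 and 0.13.

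**Figure D4:**
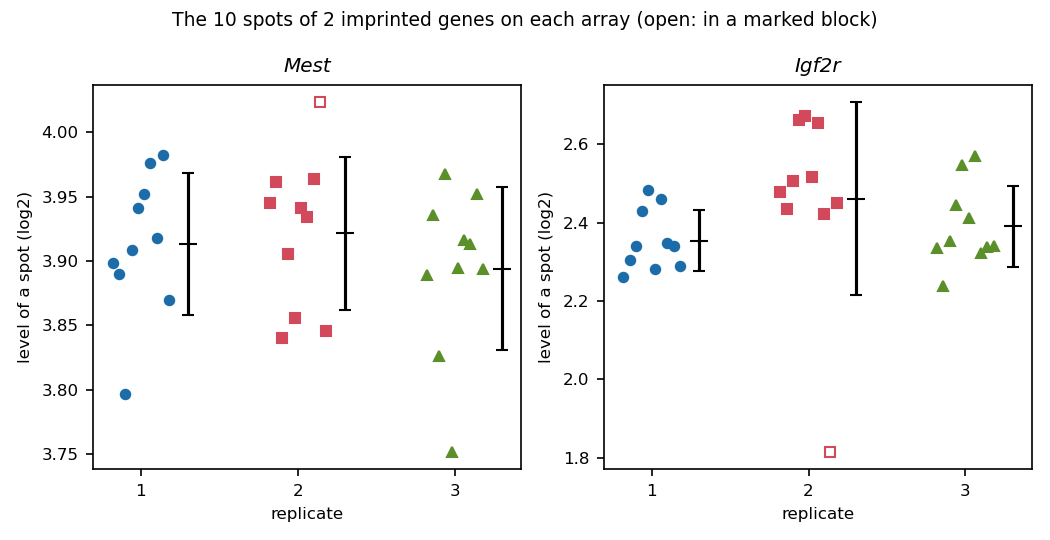
Level (log2, y axis) of the 10 spots of the Mest and Igf2r probes on each array. Bars are the mean and SD over the 10 spots, and open symbols lie in a marked block. The spots of Igf2r on replicate 2 had an SD of 0.25, and of 0.10 without the open symbol at 1.82.

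Genes that protect or erase imprints were measured in the same cells, and all 18 of the list were detected, each above the 75th percentile, beside 72.6% and 41.4% of the named genes. This list too was chosen with earlier results of these data known. Zfp57, which encodes the hexamer-binding protein, had levels of 2.50, 2.58 and 2.57, and Zfp445, a second zinc finger gene of this role, had levels of 1.73, 2.01 and 1.54. Their partner Trim28 was at 6.71 ± 0.06. Of the methylation machinery, the maintenance methyltransferase gene Dnmt1 was at 2.58 ± 0.03 and its guide Uhrf1 at 6.12 ± 0.02 (SD, n = 3). The de novo genes Dnmt3a and Dnmt3b were at 0.45 ± 0.01 and 5.91 ± 0.12, with their cofactor Dnmt3l at 6.09 ± 0.11 (SD, n = 3). Dppa3, which protects the maternal genome from demethylation in the zygote, was at 1.44 ± 0.10, and Ctcf, which insulates Igf2 from its enhancers on the maternal copy, was at 3.65 ± 0.09 (SD, n = 3). Tet1 and Tet2, which oxidise methylated cytosine, were at 4.99 ± 0.13 and 3.51 ± 0.03 (SD, n = 3).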

How the data were processed

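Total RNA of 3 PD-treated J1 samples was hybridised to Agilent 1-colour arrays. The deposited scanner tables hold intensities, which the authors extracted with Agilent Feature Extraction (10.7 per the labels, 10.7.3.1 per the file headers), background-subtracted and detrended within each array. A deposited table of log2 values, whose normalization between arrays is not given in the sources used here, served as an alternative. Spots with outlier flags were left out, spots of a probe were averaged on the log2 scale, and the 75th percentile over probes was subtracted on each array. A probe was detected if a share of at least 0.5 of its spots was well above background. Probes were named by accession through a RefSeq table of GRCm38.p6, with no coordinates taken from the array; 27235 of 55681 probes received a gene. Every listed gene with a probe is named in the text. The members and lists were chosen with earlier results of these data known. The F test used limma 3.58.1 (R 4.3.3) and was tested on simulated data; other steps used Python 3.11.15. Alternatives were other scalings, background correction by normexp, other detection rules, leaving out marked blocks and leaving out each array. The number of arrays (3) limits the precision, and no depth exists for arrays.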

Additional observations from a re-analysis of the deposited data

How the results depend on the processing

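No paired analysis of the samples was possible because the study has a single group here, with nothing to pair against. Spots at the same position on the arrays could have been paired, and the F test did not do so. The count of imprinted genes detected on all arrays was 38 and ranged from 35, where all probes of a gene had to be detected, to 41, with the scanner's weaker flag for signal above background. With 1 array left out it was 38 to 39. The median SD of 0.085 was 0.068 to 0.088 under the other scalings, background correction, probe rules and filters. With 1 array left out it was 0.052 to 0.083, the lowest without replicate 2. No detected imprinted gene spanned more than 1 log2 unit under any of these settings. The number of 10-spot imprinted probes called between the arrays was 0. It was 1 (Igf2r) without the spots in marked blocks, and 1 without those spots and with the median of each array as zero, where the adjusted p was 0.0278; both settings were chosen after seeing the data. The mean level of a gene moved by more than its SD over the arrays in 29 of 42 genes under normexp, in 3 with the deposited log2 values and in 1 with quantile normalization. With the median, or with the percentile over detected probes, as zero it moved in all 42, since the zero of the scale is another. The lowest signal well above background, 10.1 to 11.4 on the 3 arrays, bounds what can be read of Igf2, Zim1, Kcnq1 and Rtl1. It is not a sharp threshold, since Igf2 at 11.7 and Zim1 at 12.5 on replicate 2 were not well above background. Peg13, detected at signals of 17.4 to 24.4, was also near it.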

Other observations

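A further list of 30 imprinted genes had 29 genes on the array, of which 23 were detected on all 3 arrays (79.3%, against 72.6% of the named genes) and 10 lay above the 75th percentile (34.5%, against 41.4%). Cdkn1c, a cell cycle inhibitor of the Kcnq1 domain that is expressed from the maternal copy, had levels of 2.66, 2.78 and 2.71. Cobl, an actin nucleator gene next to Grb10, was at 4.07 ± 0.06, and Trappc9 and Ago2, near Peg13, were at 2.70 ± 0.08 and 3.83 ± 0.12 (SD, n = 3). Sfmbt2, a polycomb-related gene imprinted in the placenta, was at 0.44 ± 0.04, and Gab1, an adaptor that also depends on histone marks of the egg, was at 2.69 ± 0.07 (SD, n = 3). Dio3, the thyroid hormone deiodinase gene at the end of the Dlk1-Meg3 domain, was detected at -4.93, -5.36 and -5.17. Slc22a2 and Slc22a3, placental transporter genes beside Igf2r, were detected on no array, and neither were Tfpi2, Klf14 and Rasgrf1. Htr2a was detected on 1 array.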
